A study of Mus musculus with 4 samples.

Results

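The islet transcription factors Pdx1, Nkx6-1, Nkx2-2, Mafa, Neurod1, Pax6, Isl1 and Rfx6 were examined in RNA sequencing counts of mouse pancreas. These 8 genes were taken by symbol from the 55291 symbols counted, and all 8 were found and passed the filter on low counts that left 19134 genes for testing. RNA came from 2 libraries of Pdx1-Cre+, poh1f/f mice, labelled knockout, and 2 libraries of Pdx1-Cre+, poh1f/+ mice, the controls. Both groups thus carried the Cre recombinase driven by Pdx1 sequences and at least 1 floxed copy of poh1, now named Psmd14, which encodes the deubiquitinase of the proteasome lid. The comparison asks what floxed alleles on both copies, rather than 1, did in the lineage that makes acinar, duct and islet cells. The sources used here give no age, sex, strain or pooling of animals. Nothing in the labels ties a library to its own animal. The p-values set the difference between the labels against the spread of 2 libraries per label, which may not be a spread between animals.

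These factors belong to several DNA-binding families. Pdx1, Nkx6-1, Nkx2-2, Isl1 and Pax6 bind DNA through a homeodomain, to which Isl1 adds LIM domains and Pax6 a paired domain. Neurod1 is a basic helix-loop-helix protein, Mafa a basic leucine zipper protein and Rfx6 a winged-helix protein of the RFX family. Pdx1 is made early in the whole pancreatic bud and later mainly in beta cells, Nkx6-1 and Mafa mark beta cells, and Nkx2-2, Neurod1, Pax6, Isl1 and Rfx6 are used by several islet cell types. Pdx1 is also made in the duodenum, Nkx2-2, Neurod1, Pax6 and Rfx6 in hormone cells of the gut, and Isl1, Neurod1, Nkx2-2, Nkx6-1 and Pax6 in parts of the nervous system.

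The promoters of the 4 factors that passed the test and of Isl1, the factor that went the other way, are shown because the first 4 were lower in the same libraries. RefSeq promoters on GRCm38.p6, from 250 bases before to 50 after the annotated start, were matched for 7 of 8 factors, all but Mafa. Motifs were searched on both strands, and capitals mark every match: the E-box CANNTG, bound by helix-loop-helix proteins, the homeodomain core TAAT, the NK2 core AAGTG, the MAF core TGCTGA and the X-box core GTTGCC. An E-box read as CAAGTG or CACTTG holds an NK2 core as well.
Pdx1 (chr5:147269847-147270146, plus strand): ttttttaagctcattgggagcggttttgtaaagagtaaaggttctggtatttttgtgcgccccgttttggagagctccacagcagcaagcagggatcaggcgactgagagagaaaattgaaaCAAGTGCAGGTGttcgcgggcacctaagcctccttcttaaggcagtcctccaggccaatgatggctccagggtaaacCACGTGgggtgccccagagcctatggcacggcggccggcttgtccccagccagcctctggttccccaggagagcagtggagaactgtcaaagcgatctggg
Nkx6-1 (chr5:101664662-101664961, minus strand): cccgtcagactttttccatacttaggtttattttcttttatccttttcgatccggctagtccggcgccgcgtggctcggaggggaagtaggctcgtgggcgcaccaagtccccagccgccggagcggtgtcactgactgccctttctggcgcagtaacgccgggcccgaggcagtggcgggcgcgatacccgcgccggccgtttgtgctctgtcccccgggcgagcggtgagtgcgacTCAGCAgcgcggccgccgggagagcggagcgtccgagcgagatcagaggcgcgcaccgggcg
Nkx2-2 (chr2:147186353-147186652, minus strand): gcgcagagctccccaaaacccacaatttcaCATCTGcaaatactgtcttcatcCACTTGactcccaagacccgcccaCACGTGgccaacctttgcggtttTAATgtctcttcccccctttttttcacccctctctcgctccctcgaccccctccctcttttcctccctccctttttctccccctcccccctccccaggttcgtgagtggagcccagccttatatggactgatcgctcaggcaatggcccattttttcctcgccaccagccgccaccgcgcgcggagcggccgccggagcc
Neurod1 (chr2:79456587-79456886, minus strand): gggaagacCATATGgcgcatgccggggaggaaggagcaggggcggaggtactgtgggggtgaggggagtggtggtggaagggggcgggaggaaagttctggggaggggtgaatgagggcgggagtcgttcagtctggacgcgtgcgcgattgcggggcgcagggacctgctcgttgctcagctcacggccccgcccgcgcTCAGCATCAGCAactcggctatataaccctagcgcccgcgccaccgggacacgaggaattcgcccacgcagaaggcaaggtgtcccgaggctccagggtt
Isl1 (chr13:116309639-116309938, minus strand): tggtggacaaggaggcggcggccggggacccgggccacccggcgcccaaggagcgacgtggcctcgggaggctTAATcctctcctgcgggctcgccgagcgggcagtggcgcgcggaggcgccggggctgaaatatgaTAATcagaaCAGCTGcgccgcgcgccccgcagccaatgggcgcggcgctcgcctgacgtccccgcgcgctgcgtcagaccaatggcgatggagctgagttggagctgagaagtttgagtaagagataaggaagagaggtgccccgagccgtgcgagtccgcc

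The windows shared no motif across the 4 factors that passed. The Pdx1 window held 3 E-boxes and 1 NK2 core, and no TAAT. The Nkx2-2 window held 3 E-boxes, 1 NK2 core and 1 TAAT. The Neurod1 window held 1 E-box and 2 adjoining MAF cores, from 50 to 39 bases before the start, and the Nkx6-1 window held 1 MAF core alone. The Isl1 window held 1 E-box and 2 TAAT cores. Among 32851 mouse promoters of this length 72.3% held an E-box, 58.0% a TAAT core, 46.4% an NK2 core, 19.5% a MAF core and 12.5% an X-box core, so these matches are a description. The windows also differed in CG dinucleotides, with 40 in that of Nkx6-1, 37 in that of Isl1, 26 in that of Neurod1, 17 in that of Nkx2-2, 11 in that of Pdx1 and 2 in that of Rfx6.

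The 4 libraries held 27470926 and 27849730 counts in labelled-knockout replicates 1 and 2, and 22875618 and 24635792 counts in control replicates 1 and 2. Levels are given as CPM, counts divided by the TMM-scaled size of the library, in which 1 count was worth 0.0342 to 0.0455 CPM. Psmd14, the targeted gene, was not reduced under the knockout label, at 1839 and 1906 counts against 1354 and 1265 counts in controls (log2 fold change 0.20 ± 0.11 SE, adjusted p = 0.259 by edgeR), so directions hold between labels only. Which exons are floxed is not given. Fold changes are log2 values, labelled knockout over control, ± SE from edgeR's quasi-likelihood fit with n = 2 libraries per group, and a gene is called to have risen or fallen where its Benjamini-Hochberg adjusted p over all tested genes was under 0.05.

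Of the 8 factors, 7 were lower in both libraries labelled knockout than in either control, and 4 of these passed the test. Neurod1, Nkx2-2, Nkx6-1 and Pdx1 fell, to between 12.8% and 27.8% of the control level. Mafa, Pax6 and Rfx6 had fitted levels of 24.3%, 24.0% and 28.9% of control and did not pass. Isl1 was higher in both libraries labelled knockout and did not pass. Of all genes tested, 22.1% were called, 9.95% as lower (1904 genes) and 12.1% as higher (2320 genes), and without scaling beyond the library total 1527 were called lower and 2827 higher. Groups that do not overlap were common, with 33.7% of tested genes lower and 34.4% higher in both libraries labelled knockout. The median log2 fold change of the 8 factors was -2.05, against 0.00 for all genes tested. In whole-tissue RNA, fewer cells of a type and less RNA per cell cannot be told apart.

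**Figure D1:**
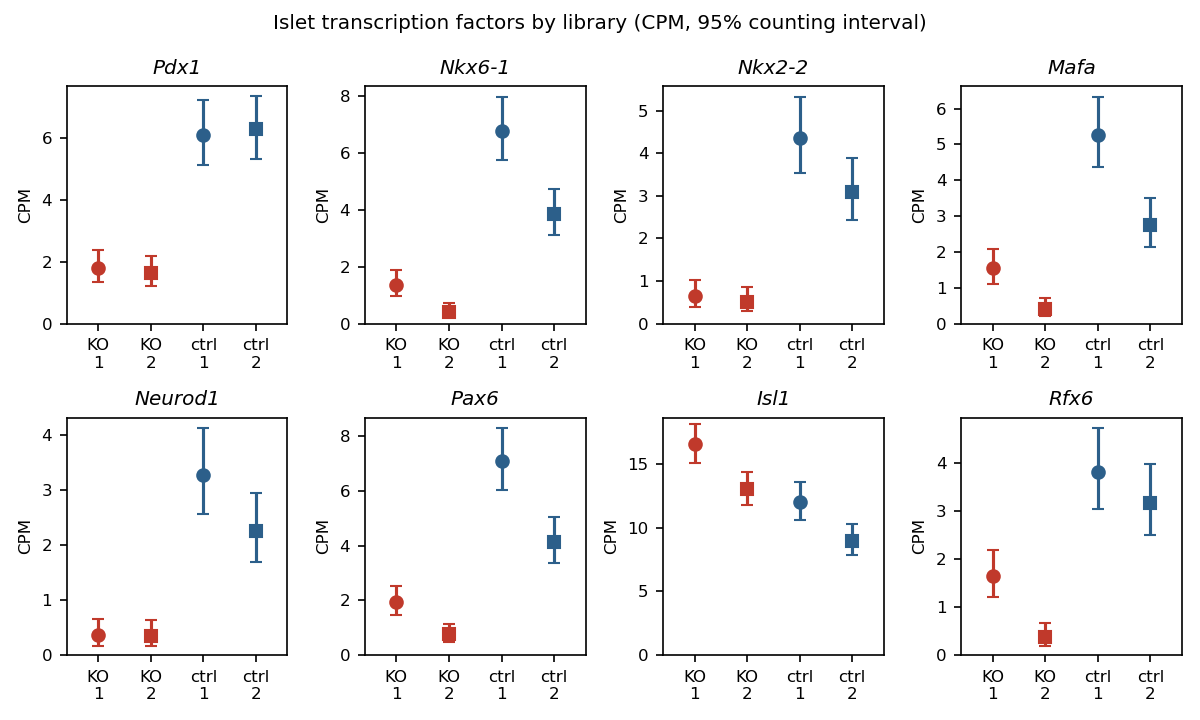
CPM of each of the 8 factors (y axis, from 0) in the 2 libraries labelled knockout (KO, red) and the 2 controls (ctrl, blue); points are single libraries and bars are 95% exact Poisson intervals, which cover counting error only. In 7 panels both red points lie below both blue points, and in the Isl1 panel both lie above them.

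Pdx1 specifies the pancreas and later sustains insulin transcription in beta cells. It had 50 and 48 counts in the libraries labelled knockout and 134 and 150 counts in controls, or 1.79 and 1.64 CPM in the libraries labelled knockout against 6.09 and 6.27 CPM in controls. The replicates of each group lay close together, and the groups were far apart. Pdx1 fell by 1.85 ± 0.26 on the log2 scale (95% interval -2.51 to -1.19, adjusted p = 0.0120 by edgeR). The gene lies on GRCm38 chromosome 5 from 147269959 to 147275848, plus strand. Plut, an antisense gene whose span (147228596 to 147271521) overlaps that of Pdx1 on the opposite strand without sharing exons in GENCODE M21, had 41 and 42 counts in the libraries labelled knockout and 135 and 126 counts in controls. Plut fell by 1.97 ± 0.28 on the log2 scale (adjusted p = 0.0120 by edgeR). As their exons do not overlap there, reads within these exons fit a single gene. The sources used here do not give the annotation release or the strand setting of the counting, so this could not be checked for the counts themselves.

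Nkx2-2 and Neurod1, which act early in endocrine differentiation and remain in mature islet cells, both fell, with no overlap between the groups. Nkx2-2 had 18 and 15 counts in the libraries labelled knockout, or 0.645 and 0.513 CPM, against 96 and 74 counts, or 4.37 and 3.10 CPM, in controls. It fell by 2.68 ± 0.37 on the log2 scale (95% interval -3.63 to -1.73, adjusted p = 0.0116 by edgeR). Neurod1 had 10 counts in each library labelled knockout, or 0.358 and 0.342 CPM, against 72 and 54 counts, or 3.27 and 2.26 CPM, in controls. It fell by 2.96 ± 0.40 on the log2 scale (95% interval -3.99 to -1.94, adjusted p = 0.0110 by edgeR). At 10 counts the 95% Poisson interval of Neurod1 ran from 0.172 to 0.659 CPM in labelled-knockout replicate 1, below the interval of 2.56 to 4.12 CPM in control replicate 1. Nkx2-2 lies on chromosome 2 from 147177546 to 147194243 and Neurod1 on chromosome 2 from 79452521 to 79456751, both on the minus strand. Some genes that overlap them in the annotation were counted too, while Gm26755, opposite to Neurod1 and sharing exon sequence with it, was not analysed here. Cerkl, a ceramide kinase-like gene on the strand of Neurod1 that shares exon sequence with it, was at 2.08 and 1.85 CPM in the libraries labelled knockout, against 1.96 and 1.46 CPM in controls and did not pass (log2 fold change 0.20 ± 0.33, adjusted p = 0.698 by edgeR). Nkx2-2os, antisense to Nkx2-2, had between 2 and 10 counts in each library and was not tested. It shares exon sequence with Nkx2-2, and how reads of shared sequence were assigned is not given.

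Nkx6-1 and Mafa are beta-cell factors that act on the insulin genes and on genes of insulin secretion. Nkx6-1 (chromosome 5, 101658139 to 101664996, minus strand) had 38 and 12 counts in the libraries labelled knockout, or 1.36 and 0.411 CPM, against 149 and 92 counts, or 6.78 and 3.85 CPM, in controls. It fell by 2.58 ± 0.64 on the log2 scale (95% interval -4.22 to -0.94, adjusted p = 0.0459 by edgeR), a call close to the threshold. Mafa (chromosome 15, 75745490 to 75748228, minus strand) had 43 and 12 counts in the libraries labelled knockout, or 1.54 and 0.411 CPM, against 116 and 66 counts, or 5.28 and 2.76 CPM, in controls. Its log2 fold change was -2.04 ± 0.70 (95% interval -3.81 to -0.27, adjusted p = 0.0959 by edgeR). In both genes the replicates of a group differed more than those of Pdx1, and labelled-knockout replicate 2 was the lowest library.

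Pax6, which sustains hormone gene expression in several islet cell types, and Rfx6, needed for the formation of most islet cell types in mice, were lower in both libraries labelled knockout but did not pass. Pax6, on chromosome 2 from 105668900 to 105697364 of the plus strand, had 54 and 22 counts in the libraries labelled knockout, or 1.93 and 0.753 CPM, against 156 and 99 counts, or 7.10 and 4.14 CPM, in controls. Its log2 fold change was -2.06 ± 0.55 (95% interval -3.47 to -0.65, adjusted p = 0.0551 by edgeR). Rfx6, on chromosome 10 from 51677756 to 51730432 of the plus strand, had 46 and 11 counts in the libraries labelled knockout, or 1.65 and 0.377 CPM, against 84 and 76 counts, or 3.82 and 3.18 CPM, in controls. Its log2 fold change was -1.79 ± 0.68 (95% interval -3.53 to -0.05, adjusted p = 0.122 by edgeR). Rfx6 differed more between the 2 libraries labelled knockout than any other of the 8 factors, 4.38-fold in CPM.

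Isl1, a LIM-homeodomain protein of islet cells and of motor, sensory and sympathetic neurons, stood apart. It had 463 and 381 counts in the libraries labelled knockout, or 16.6 and 13.0 CPM, against 265 and 215 counts, or 12.1 and 8.99 CPM, in controls. Both libraries labelled knockout were above both controls, but the Poisson intervals of labelled-knockout replicate 2 (11.8 to 14.4 CPM) and control replicate 1 (10.6 to 13.6 CPM) overlapped. The log2 fold change was 0.49 ± 0.23 (95% interval -0.09 to 1.08, adjusted p = 0.182 by edgeR). With all 4 libraries 0 of the 8 factors were called higher by edgeR, DESeq2 or limma-voom, and 0 had a higher level with an unadjusted p under 0.05 in edgeR with TMM scaling. Without scaling beyond the library total, Isl1 had a log2 fold change of 0.59 and an unadjusted edgeR p of 0.0423 (adjusted p = 0.116 by edgeR). The 95% interval of Isl1 overlapped that of Rfx6 and of none of the other 6. Isl1 CPM was 1.79 and 2.93 times the summed CPM of the other 7 factors in the libraries labelled knockout, and 0.328 and 0.352 times in controls. Isl1 lies on chromosome 13 from 116298281 to 116309689, minus strand, where the annotation holds no overlapping gene.

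**Figure D2:**
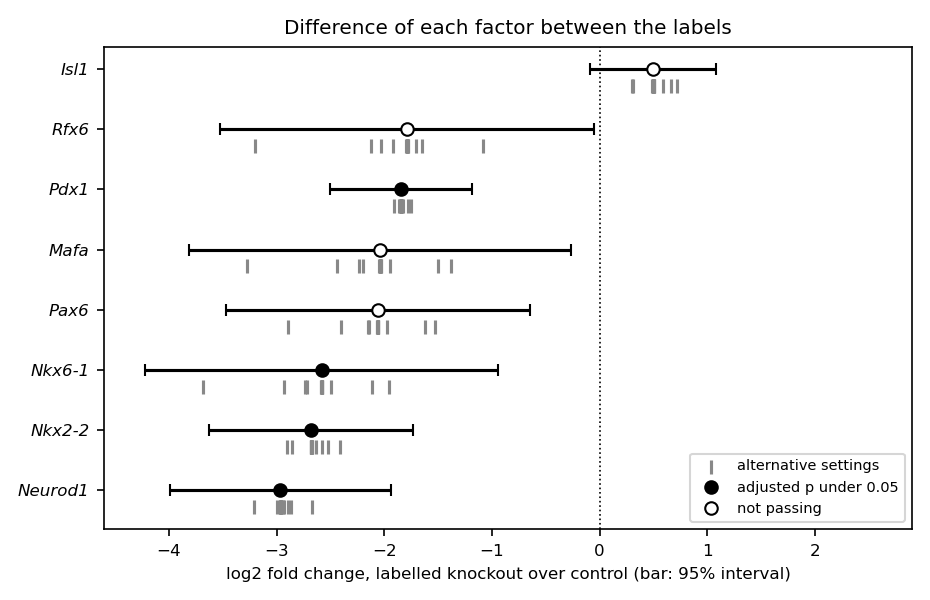
Log2 fold change of each factor, labelled knockout over control (x axis), with its 95% interval from edgeR; filled points passed at an adjusted p under 0.05 and open points did not, and grey ticks are the values under 13 alternative settings. The points of 7 factors lie left of 0 in every setting drawn, between -1.08 and -3.68, and Isl1 lies right of 0 in each, between 0.30 and 0.72.

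The calls depended on which libraries were kept, as did those over all tested genes, while the directions of the 8 factors did not. Fewer genes were called over all tested genes whichever library was left out, so only effect sizes are compared here. Without control replicate 1, the log2 fold changes were -1.87 for Pdx1, -2.41 for Nkx2-2, -2.67 for Neurod1 and -2.12 for Nkx6-1. Without labelled-knockout replicate 1, those of Mafa, Pax6 and Rfx6 were -3.28, -2.89 and -3.20. Without labelled-knockout replicate 2, the library with gut and neuronal RNA described below, Nkx6-1 was at -1.96, Pax6 at -1.53, Mafa at -1.38 and Rfx6 at -1.08.

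Compared per length of exon sequence, the order of the factors differed between the groups. In the libraries labelled knockout Isl1 came first, at 3.74 ± 0.633 CPM per kb (SD, n = 2), ahead of Pdx1 at 0.796 ± 0.0485 CPM per kb, and the library ranges of these neighbours did not overlap. Mafa, Nkx6-1, Rfx6 and Nkx2-2 followed at 0.356, 0.282, 0.252 and 0.201 CPM per kb, each overlapping the next, and Neurod1 and Pax6 came last at 0.128 and 0.115 CPM per kb. In controls Pdx1 came first, at 2.87 ± 0.0590 CPM per kb, and its library range overlapped that of Isl1 at 2.66 ± 0.546 CPM per kb. Nkx6-1, Mafa, Nkx2-2, Neurod1 and Rfx6 followed at 1.69, 1.47, 1.30, 1.01 and 0.873 CPM per kb, each overlapping the next, and Pax6 was lowest at 0.480 CPM per kb. Pax6 has the longest exon sequence of the 8, 11694 bases over all annotated transcripts together, and its last rank rests on that length. Without division by length its control mean was 5.62 CPM, below those of Isl1 and Pdx1 only.

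Each factor was also set against the endocrine granule RNA of its own library, the summed CPM of Chga, Chgb, Scg2, Scg3, Pcsk2 and Ptprn. This sum was 110 and 103 CPM in the libraries labelled knockout, against 474 and 319 CPM in controls. Its make-up differed between the libraries labelled knockout: Chgb was at 16.5 and 27.2 CPM and Ptprn at 5.52 and 14.6 CPM in replicates 1 and 2, whereas Chga was at 36.1 and 20.4 CPM and Pcsk2 at 9.42 and 2.84 CPM. Neuron markers, whose part in this sum was not tested, were also higher in labelled-knockout replicate 2. Per 1000 CPM of granule genes, Pdx1 stood at 16.2 and 15.9 in the libraries labelled knockout and 12.9 and 19.7 in controls, so its groups overlapped and their means were 0.987-fold apart. Neurod1 stood at 3.25 and 3.31 in the libraries labelled knockout and 6.91 and 7.09 in controls. Nkx2-2 stood at 5.84 and 4.97 in the libraries labelled knockout and 9.21 and 9.72 in controls. On this scale Neurod1 and Nkx2-2 were thus the 2 factors lower in both libraries labelled knockout, with means at 0.468 and 0.571 of control. The summed genes fell unequally, with log2 fold changes from -2.57 for Chga and -2.56 for Pcsk2 to -1.09 for Scg3. Those of Nkx2-2 and Neurod1 were -2.68 and -2.96, so Nkx2-2 lay near Chga and Pcsk2. The separation of these factors therefore holds for this sum alone and was not examined against single granule genes. The groups of Nkx6-1, Mafa, Pax6 and Rfx6 overlapped, since labelled-knockout replicate 1 lay within or above the controls and labelled-knockout replicate 2 below them. Isl1 stood at 150 and 126 in the libraries labelled knockout and 25.4 and 28.2 in controls, a ratio of means of 5.15. No test was made of these ratios.

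**Figure D3:**
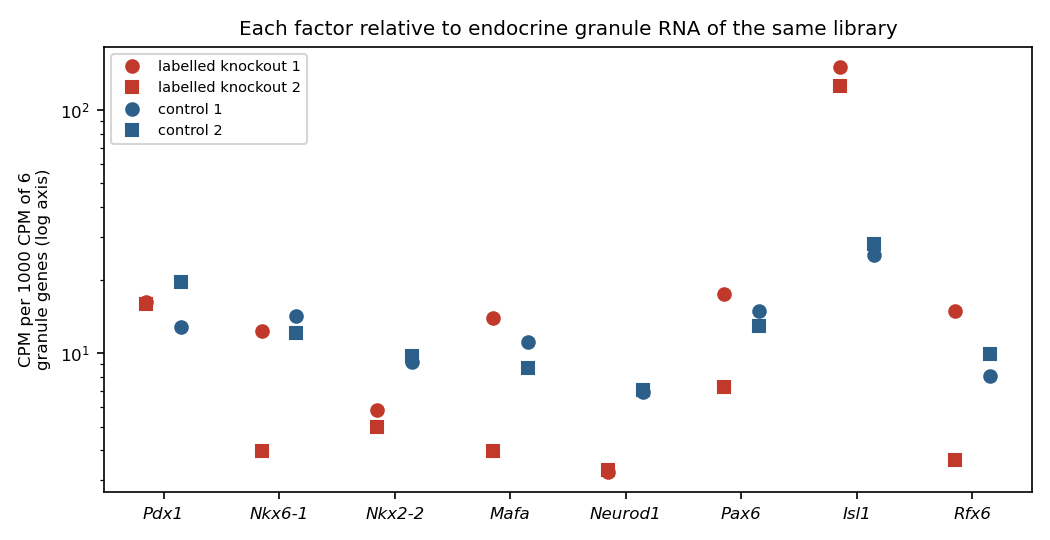
CPM of each factor per 1000 CPM of 6 endocrine granule genes in the same library (y axis, log scale), with libraries labelled knockout in red and controls in blue, circles for replicate 1 and squares for replicate 2. Neurod1 and Nkx2-2 lie lower and Isl1 higher in both libraries labelled knockout, and the other 5 factors overlap.

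The factors differed in how far the libraries labelled knockout lay apart. Pdx1, Nkx2-2 and Neurod1 were in replicate 1 at 1.09, 1.26 and 1.05 times replicate 2, and in control replicate 1 at 0.971, 1.41 and 1.45 times control replicate 2. Nkx6-1, Mafa, Pax6 and Rfx6 were 3.31, 3.75, 2.57 and 4.38 times as high in labelled-knockout replicate 1 as in 2, and so were the insulin genes Ins1 and Ins2 (3.22 and 3.30) and the glucagon gene Gcg (8.58), whereas somatostatin, Sst, was equal in both (0.997). Isl1 was at 1.27 times in labelled-knockout replicate 1 and at 1.34 times in control replicate 1. Likeness was measured as the root-mean-square distance between log2 CPM profiles, each centred on its own mean over the 4 libraries, among 16364 other genes. With 4 libraries many genes lie close, so the nearest genes are a description.

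Among the factors, Nkx2-2 and Neurod1 lay closest together, at a distance of 0.116, while Nkx2-2 lay about as far from Pdx1 (0.396) as from Pax6 (0.414). Also among the 3 genes nearest to each were Resp18, a protein of endocrine granules, for Nkx2-2 (0.150) and Itm2a, a membrane protein, for Neurod1 (0.135). Mafa lay nearest to Ins2, at 0.0258, then to B830017H08Rik and to Twist1, a factor of mesenchymal cells, and among the factors to Pax6 (0.161). With 12 counts in labelled-knockout replicate 2, Mafa had a 95% Poisson interval of 0.212 to 0.718 CPM there. Distances this small are below such counting error, so their order cannot be resolved. Nkx6-1 lay nearest to Pcsk2, a prohormone convertase, to Iapp, the amyloid peptide of beta cells, and to Ins1, at 0.0954 to 0.112. Pdx1 lay nearest to Arhgef19, Cd276 and Hmgcll1, at 0.0187 to 0.0503, and its nearest factor, Nkx2-2, ranked 723. Pax6 lay nearest to Gm38070, Ccdc65 and the ligand Wnt4, and Rfx6 to Twist1, Kl and Col24a1. Isl1 lay nearest to 4930426L09Rik, Gm14221 and Gm14286, at 1.09 to 3.80 CPM, and its nearest factor, Pdx1, ranked 15257.

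**Figure D4:**
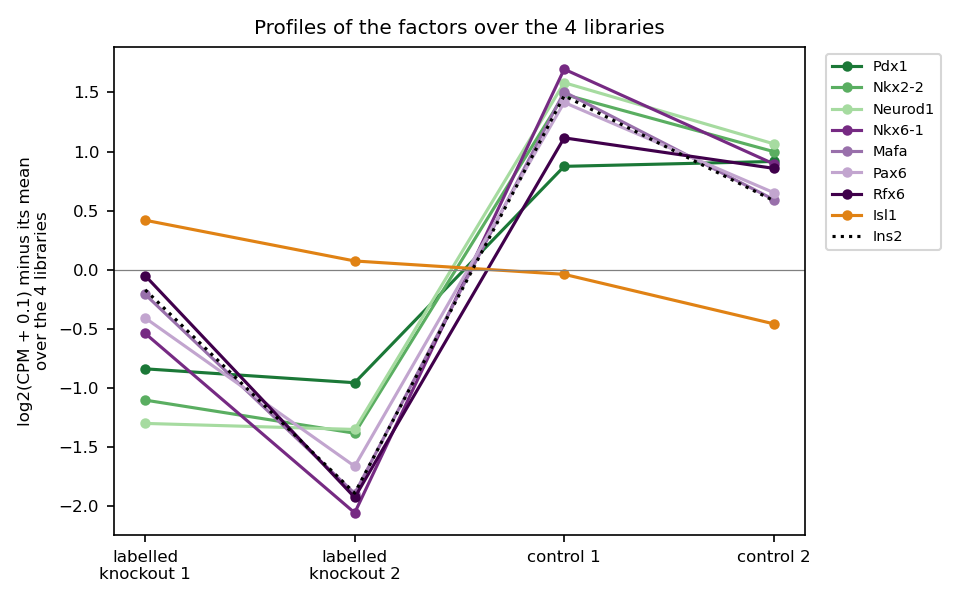
Log2(CPM + 0.1) of the 8 factors and of Ins2, minus each gene's mean over the 4 libraries (y axis), by library (x axis); lines only join the points of a gene. Nkx2-2 and Neurod1 run together, Mafa runs with Ins2, and between the groups Isl1 differs in the other direction from the other 7.

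Of 22 other transcription factors of islet cells and their progenitors, 17 passed the count filter, and of these 4 fell, 1 rose and 12 did not pass. The share called over all genes tested was 9.95% lower and 12.1% higher, so the 1 higher call is below the background share. Their median log2 fold change was -0.80, against 0.00 for all genes tested. Foxa2, a pioneer factor of gut and pancreas that acts upstream of Pdx1, was at 3.94 and 3.66 CPM in the libraries labelled knockout, against 18.1 and 14.0 CPM in controls, a fall of 2.08 ± 0.22 on the log2 scale (adjusted p = 0.00662 by edgeR). Glis3, a zinc finger activator of the insulin gene, fell by 0.78 ± 0.12 on the log2 scale (adjusted p = 0.0142 by edgeR). Prox1, a homeodomain factor that lymphatic vessels also use, rose to 35.4 and 32.0 CPM in the libraries labelled knockout, against a mean of 22.2 ± 1.68 CPM in controls (log2 fold change 0.60 ± 0.13, adjusted p = 0.0351 by edgeR). The 5 not tested, Neurog3, Pax4, Fev and Pou3f4 among them, had at most 4 counts in any library. Insm1, a zinc finger factor that works with Neurod1 and Nkx2-2 and is named here after its values were seen, did not pass, at 4.33 and 4.38 CPM in the libraries labelled knockout, against 4.14 and 2.43 CPM in controls (log2 fold change 0.41 ± 0.34, adjusted p = 0.430 by edgeR). Without control replicate 1, fewer of these factors were called lower in edgeR, and fewer genes were called lower over all tested genes as well.

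Among 23 genes that islet cells use to sense glucose and to make, store and release hormones there were 13 that fell, 0 that rose and 10 that did not pass, beside 9.95% of all tested genes called lower. The median log2 fold change was -2.11. In 22 of them both libraries labelled knockout lay below both controls, as in 33.7% of all tested genes, and in 1 the groups overlapped. All 23 log2 fold changes were below 0, and DESeq2 and limma-voom called 0 higher, as did edgeR at an unadjusted p under 0.05. Sst fell by 2.53 ± 0.33, Chga, the chromogranin of hormone granules, by 2.57 ± 0.37 and Scg2, a granin, by 1.53 ± 0.22 on the log2 scale (adjusted p = 0.0101, 0.0129 and 0.0123 by edgeR). Ins1 was at 92.7 and 28.8 CPM in the libraries labelled knockout, against 364 and 205 CPM in controls and did not pass (log2 fold change -2.23 ± 0.60, adjusted p = 0.0561 by edgeR). Ins2 (-1.88 ± 0.62) and Gcg (-2.75 ± 0.98) did not pass either (adjusted p = 0.0876 and 0.105 by edgeR). Fewer of these genes were called lower when a control library was left out, and more when a library labelled knockout was. Over all tested genes, fewer were called lower in each of these cases.

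Of 11 cofactors, proteins that work with the factors, 2 fell, 2 rose and 7 did not pass, with a median log2 fold change of -0.11. These counts are close to the background shares of 9.95% lower and 12.1% higher. Ssbp3, which joins Ldb1 and Isl1 in a complex, fell by 0.63 ± 0.10, and Meis1, a homeodomain partner of PBX proteins, by 0.89 ± 0.15 on the log2 scale (adjusted p = 0.0177 and 0.0182 by edgeR). Pcif1, a cap methyltransferase that binds Pdx1, rose by 0.40 ± 0.09 and Tcf3, the E protein that pairs with Neurod1, by 0.35 ± 0.09 (adjusted p = 0.0335 and 0.0494 by edgeR). Ldb1 itself, the LIM-domain binding partner of Isl1, was at 198 and 188 CPM in the libraries labelled knockout, against 230 and 206 CPM in controls and did not pass (log2 fold change -0.18 ± 0.12, adjusted p = 0.319 by edgeR). The cofactors are made in most tissues, and 0 were called higher when any library was left out.

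Markers of other cells moved in the same libraries, and their part in the levels of the factors was not tested. Over all tested genes 9.95% were called lower and 12.1% higher, the shares to set beside the counts of each marker list. Of 12 lymphocyte genes 12 rose, with summed CPM of 1759 and 1852 in the libraries labelled knockout and 331 and 337 in controls. Of 5 adipocyte genes 4 rose, with sums of 2807 and 2031 CPM in the libraries labelled knockout, against 235 and 559 CPM in controls. Of 11 acinar genes 8 fell, with sums of 186 and 565 CPM in the libraries labelled knockout, against 11598 and 2333 CPM in controls, of 10 duct genes 9 fell, with sums of 829 and 886 CPM in the libraries labelled knockout, against 3236 and 2654 CPM in controls, and of 6 fibroblast genes 4 fell, with sums of 9849 and 8605 CPM in the libraries labelled knockout, against 24059 and 28067 CPM in controls. Pla2g1b, an acinar phospholipase, had 0 counts in labelled-knockout replicate 1. The acinar sum in control replicate 1 was far above that in control replicate 2. Of the 7 lower factors, 5 were also at least 1.41 times as high in control replicate 1, against 1.20 for Rfx6 and 0.971 for Pdx1. Isl1, which was not lower, was at 1.34 times. The share of all tested genes with such ratios was not counted.

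Labelled-knockout replicate 2 also held more RNA of gut and nerve than the other libraries. The 12 gut epithelium genes summed to 18.8 CPM in labelled-knockout replicate 1 and 525 CPM in labelled-knockout replicate 2, against 65.4 and 75.7 CPM in controls (4 tested, of which 1 fell). Cdx2, the intestinal homeodomain factor, and the brush-border enzymes Sis and Alpi had 127, 2508 and 756 counts in labelled-knockout replicate 2 and 0 in each other library. The incretin gene Gip had 60 counts in labelled-knockout replicate 2 and 0 in each other library, and Cck had 46 against 2 in labelled-knockout replicate 1 and 6 in each control. The 9 genes listed for gut hormone cells summed to 12.3 and 13.7 CPM in the libraries labelled knockout, against 47.3 and 37.5 CPM in controls. Of these, 5 were tested, of which 2 fell (Pyy and Tac1) and 1 rose (Ghrl). Pyy, a peptide that islets also make, had 206 and 90 counts in the libraries labelled knockout and 940 and 710 counts in controls. At 42.8 and 29.7 CPM it made up most of the control sums, which therefore say little of the other genes. Ghrl had 32 and 25 counts in the libraries labelled knockout, against 1 and 3 counts in controls (adjusted p = 0.0224 by edgeR). Nts and Tph1 had log2 fold changes of 0.98 and 1.13 and did not pass. The part of gut RNA in the levels of the factors was not tested.

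Isl1 is also made by neurons, and the part of nerve RNA in its level was not tested. The 12 neuron genes summed to 61.2 CPM in labelled-knockout replicate 1 and 317 CPM in labelled-knockout replicate 2, against 82.5 and 115 CPM in controls, and the edgeR adjusted p of the 12 ran from 0.0749 to 0.877. In 10 of the 12 the groups overlapped. The other 2, Dbh and Stmn2, were higher in both libraries labelled knockout, as were 34.4% of all tested genes. Dbh, an enzyme of noradrenaline synthesis, had 32 and 1638 counts in the libraries labelled knockout, against 0 and 8 counts in controls. Stmn2, a microtubule regulator of neurons, had 911 and 1525 counts in the libraries labelled knockout, against 599 and 750 counts in controls. Th, another enzyme of that synthesis, had 33 and 1329 counts in the libraries labelled knockout, against 31 and 13 counts in controls. The 8 Schwann cell genes summed to 217 and 237 CPM in the libraries labelled knockout, against 110 and 142 CPM in controls. Of these, 4 were called higher, beside 12.1% of all tested genes. Of the other 4, S100b overlapped between the groups and Gfap was lower in both libraries labelled knockout, at 2.08 and 1.88 CPM against 2.55 and 9.66 CPM in controls, and did not pass. Lymphocyte and adipocyte sums were likewise higher in both. The 3 genes of spleen stroma summed to 17.8 and 22.0 CPM in the libraries labelled knockout, against 25.1 and 31.3 CPM in controls, nearly all from Nkx2-3, which did not pass, and Tlx1 and Nkx2-5 had 0 counts in labelled-knockout replicate 2.

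**Figure D5:**
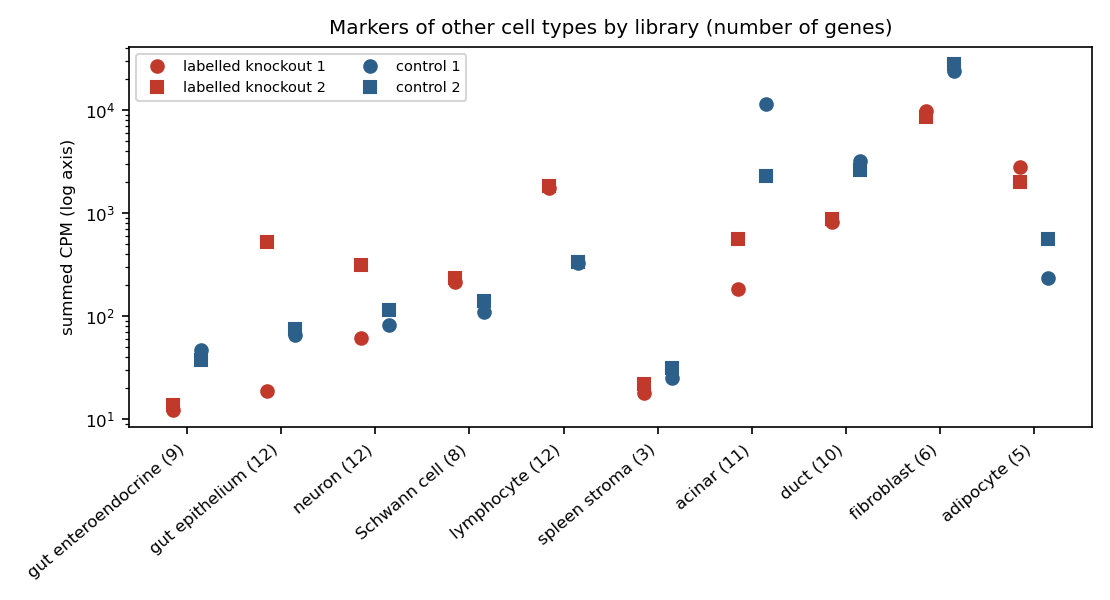
Summed CPM of markers of 10 other cell types (y axis, log scale; number of genes in brackets), with libraries labelled knockout in red and controls in blue, circles for replicate 1 and squares for replicate 2. Lymphocyte and adipocyte sums are higher and acinar, duct and fibroblast sums lower in both libraries labelled knockout, and gut epithelium and neuron sums are highest in labelled-knockout replicate 2.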

How the data were processed

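Bulk RNA sequencing of mouse pancreas gave 1 count table per library, 2 libraries labelled knockout and 2 controls. The authors deposited raw counts per gene symbol, with no normalization. The submitters' processing notes name STAR 2.7.6a and featureCounts 2.0.1 with GRCm38, beside Trim Galore 0.6.6, FastQC 0.11.9 and SAMtools 1.7. The sources used here do not give the annotation release, the strand setting or the handling of multi-mapped reads, which decide how reads of overlapping genes are assigned.

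From these counts, genes were filtered with filterByExpr, scaled by TMM and tested with edgeR 4.0.16 (quasi-likelihood, group as the only term, R 4.3.3), with Benjamini-Hochberg adjustment over 19134 genes and a threshold of 0.05. SE is the log2 fold change over the root of its F value. Counting intervals are exact Poisson at 95% and cover counting error only. Alternatives used DESeq2 1.42.0, limma 3.58.1 (voom), other scalings and filters, a replicate block and each library left out, and, chosen after seeing the data, 683 immunoglobulin and T cell receptor genes left out. Exon lengths and overlaps came from GENCODE M21 (GRCm38), where 53292 of 55291 symbols matched, and profile distances used log2(CPM + 0.1) of genes with a mean of at least 1 CPM. On simulated counts of 18690 genes, 35.7% of the tested genes among 100 changed 2-fold, and 81.1% of those among 100 changed 4-fold, were recovered. Replicates of a group differed beyond counting noise and were kept as separate samples.

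The 8 factors and the gene lists were chosen with earlier results of these data known. Named were the 8 factors, Psmd14, Ins1, Ins2, Gcg and Sst, the 4 called genes with the smallest p of each pathway list, the 3 genes nearest in profile to each factor, overlapping genes and markers; Ldb1, Insm1, Pla2g1b, Stmn2, S100b and Gfap were named after their values were seen. Some genes that this rule would name are not reported here.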

Additional observations from a re-analysis of the deposited data

How the results depend on the processing

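All 8 factors kept their direction in the 13 alternatives run, and none of the other values named reversed. Pdx1, Nkx2-2 and Neurod1 were called in 12 of 13, Nkx6-1 in 10, Pax6 in 5, Mafa in 3, Rfx6 in 1 and Isl1 in 0 (edgeR, DESeq2 or limma-voom adjusted p of 0.116 to 0.556). Nkx6-1 was lost with a mean count of at least 10 (edgeR adjusted p = 0.0557). DESeq2 also called Mafa and Pax6 (adjusted p = 0.0296 and 0.00438). Higher calls among the other islet transcription factors numbered 2 without scaling and with DESeq2. Those among cofactors numbered 0 with no filter and 1 with limma-voom. Without scaling the median log2 fold change of all genes was 0.0969, against 0.00 with TMM.

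Same-numbered libraries share only a number, and their deviations correlated at -0.05 over 19134 genes. A block on replicate number gave 6 factors called lower by edgeR (Mafa and Pax6 added), 0 other islet factors higher and 0 cofactors higher.

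Leaving out 1 library assumes that a lone library varies like the other group. Calls over all genes then ran from 1126 to 4034, 424 to 1696 of them lower and 702 to 2338 higher. Factors called lower ran from 0 to 7, with a median log2 fold change from -2.95 to -1.66. Other islet factors called lower ran from 1 to 6, hormone and granule genes from 2 to 21 and cofactors from 0 to 2, and higher calls of other islet factors and of cofactors were 0 throughout. At 10 counts per library labelled knockout, the Poisson intervals of Neurod1 span 0.172 to 0.659 and 0.164 to 0.630 CPM, so smaller differences between these libraries cannot be resolved.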
